A study of Tupaia belangeri with 15 samples.

Results

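Levels of 10 genes of the circadian clock were followed through 15 retinas of the tree shrew (TS, Tupaia belangeri), a day-active mammal whose photoreceptors are mostly cones. The 10 genes were CLOCK, ARNTL, NPAS2, PER1, PER2, PER3, CRY1, CRY2, NR1D1 and NR1D2. They were taken by gene name from the 83605 features of the deposited matrices, and each exact name belonged to a single feature. Single-nucleus RNA libraries had been made from frozen whole retinas, 1 library per retina, with 5 retinas each of the stages Infancy, Mature and Senile. No treatment and no genetic change is named for any group. Infant and mature animals came from a university colony kept in a light and dark cycle, and senile animals were purchased from another institute, so that senile stage and source cannot be told apart. The time of day at collection is not given in the sources used here, which limits what can be read from genes whose RNA cycles over the day. The labels do not tie a retina to an animal, although the study's design speaks of as many animals as retinas in each stage, and p-values measure the spread between these samples.

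In mammals the clock is a loop of transcription and translation. CLOCK, or its relative NPAS2, pairs with the protein of ARNTL (also called BMAL1) and activates the PER and CRY genes, whose proteins return to the nucleus and inhibit that pair. A second loop runs through the nuclear receptors NR1D1 and NR1D2 (REV-ERB alpha and beta), which are driven by the same pair and repress ARNTL, against the activating ROR receptors. The retina holds clocks of its own that shape its sensitivity to light, melatonin synthesis and dopamine release over the day. In a population that cycles together, RNA of ARNTL peaks opposite to that of NR1D1.

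The libraries held 13429873 to 58734300 unique molecular identifiers (UMIs, 1 per captured RNA molecule). Of 120437 barcodes, 119765 passed the filters on genes detected and on mitochondrial UMIs. Levels are given as counts per 1e6 UMIs of the same library or class (CPM), which allows a gene to be compared with itself but not with another gene. Of 118622 distinct barcodes, 1793 occurred in more than 1 library and at most 4 libraries shared one. The labels' processing notes give Cell Ranger 5.0.1 for 7 libraries (Infancy 1 to 3, Mature 1 and 2, Senile 1 and 2) and 7.0.1 for 8, whereas the file headers give 6.1.2 for the former and the study's methods name a single version for all libraries. The 3′ kit in the labels is also an earlier one than in the methods. The sets are therefore named by the labels' version, and which version was in fact run was not settled. These 2 sets stood apart: 36.4% of 28977 features differed between them in edgeR's quasi-likelihood test, and 5 of the 10 clock genes did. Stage was therefore tested with the set in the model. Levels in classes are means over both sets. Where the highest class of a gene other than PER1 and CRY1 turned between the sets, this is named. Not every turn lower in the order is named. An example is PER3, with Müller cells at 745 CPM and cones at 784 in the set of 7. In the set of 8 they were at 1099 and 778.

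Over all kept nuclei PER3 gave 336585 UMIs, NR1D2 77234, ARNTL 53606, CLOCK 51559, CRY2 31171, NPAS2 20769, NR1D1 14736 and PER2 9021. PER1 gave 814 and CRY1 371, from 25 to 88 and from 9 to 40 per retina, so that these 2 genes were barely measurable within classes. Antisense, neighbouring and numbered features carry some of the same names. The numbered copies ARNTLli1 and NR1D2li2 held 146 and 105 UMIs and were left out of the main values. CRY1-AS-2, named as antisense to CRY1, held 3674 UMIs, and CLOCK-AS-1 held 11109. CRY1-AS-2 was highest in Müller cells, at 15.1 CPM ± 7.82 (SD, n = 15 retinas), and its relation to CRY1 was not tested.

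Nuclei were given a class from marker genes, none of them a clock gene, and 45564 of the kept nuclei were assigned to 9 classes. Another 61.8% of nuclei stayed without a class, and 49970 nuclei were described better by a mixture of a pair of classes than by 1. The names rest on these markers alone, so that cones, for example, stands for cone-like nuclei throughout. They comprised 12119 cones, 665 rods, 14118 bipolar cells (BCs), 668 horizontal cells (HCs), 8418 amacrine cells (ACs), 4540 retinal ganglion cells (RGCs), 3979 Müller cells, 641 astrocytes and 416 microglia. Cone markers summed to 0.763% to 3.78% of their level in cones in the other 8 classes, whereas HCs carried the AC markers at 37.7% of their level in ACs and astrocytes the Müller markers at 17.8%. Several defining genes, among them GAD2 and POU4F2, were listed at 0 in every library and took no part. A retina entered a class with at least 20 nuclei, which all 15 had for cones, BCs, ACs, RGCs and Müller cells, 14 for HCs, 13 for astrocytes and 12 for rods and microglia.

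The activators were distributed differently from each other. CLOCK, the constitutive partner, was present in every class within a narrow band, from 82.8 CPM ± 48.9 in astrocytes (n = 13) to 139 ± 56.9 in microglia (n = 12), with 133 ± 25.8 in BCs and 103 ± 16.9 in cones (n = 15 each). Of its 8 steps between neighbouring classes, the one from RGCs (120 ± 24.1 CPM) to cones passed a 2-sided exact sign-flip test within retinas, with an adjusted p of 0.0305 over all 80 neighbour pairs of the 10 genes and RGCs higher in 11 of 15 retinas. The other 7 steps of CLOCK did not pass. In the set of 7 HCs (160 CPM), rods (153) and BCs (152) lay above microglia (147), so that the highest class of CLOCK turned with the set. Steps of all genes that did not hold with a stricter rule for assigning nuclei (the stricter gate) are named beside their values, and with that rule RGCs and cones were no longer neighbours for CLOCK.

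ARNTL was highest in microglia and in cones. Microglia reached 324 CPM ± 146 (n = 12; lowest 134, median 323, highest 686) on 181 UMIs. Cones reached 194 ± 33.2 (n = 15; lowest 151, median 200.2, highest 265) on 10496 UMIs. Rods followed at 146 ± 50.5, and the inner neurons and Müller cells lay between 94.955 (RGCs) and 118 (ACs). The step from microglia to cones passed (mean log2 difference 0.65, 9 of 12 retinas, adjusted p = 0.0297, exact sign-flip test), and so did that from cones to rods (0.46, 11 of 12 retinas, adjusted p = 0.0112). The 6 lower steps, down to 74.9 ± 39.6 in astrocytes, did not. With the stricter gate the step from cones to rods passed again (adjusted p = 0.0166) and that from microglia to cones did not (adjusted p = 0.12, exact sign-flip test). The order of microglia and cones also turned with the scaling of the counts. In the edgeR fit below, ARNTL stood above the mean of the other classes by log2 1.54 in microglia and 0.68 in cones with library sizes alone. With edgeR's TMM scaling these values were 0.70 and 0.96. In cones ARNTL stood 1.83 times as high as in BCs.

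NPAS2, which can take the place of CLOCK, had another pattern. It was highest in RGCs, at 107 CPM ± 20.5 (n = 15; lowest 65.9, median 106, highest 154), followed by astrocytes at 92.0 ± 43.3, ACs at 61.9 ± 7.45 and HCs at 54.7 ± 25.4. Müller cells held 26.4 ± 19.3 and BCs 21.3 ± 4.68. Cones had the lowest mean, 2.15 ± 1.36 CPM (lowest 0.534, median 1.90, highest 5.18) on 117 UMIs. Rods had 11.6 ± 28.1 CPM (n = 12; lowest 0, median 2.31, highest 99.6) on 12 UMIs, and the highest value came from 3 UMIs in Senile 2. Without that retina the mean of rods was 3.64 ± 4.89 (n = 11). Microglia had 11.7 ± 21.9 on 4 UMIs. The level in cones was 2.02% of that in RGCs, and RGC markers in cones were at 2.54% of their level in RGCs. Those markers took part in assigning the classes, so they are no measure of background for NPAS2. Whether the cone value is background or low expression was not tested. The ranges of cones and RGCs were far apart, with no retina between. The step from HCs to Müller cells passed (log2 difference 1.36, 13 of 14 retinas, adjusted p = 0.00651, exact sign-flip test), as did that from BCs to microglia (2.79, 9 of 12 retinas, adjusted p = 0.0421). These differences are on the log2(CPM + 1) scale. Microglia had a median of 0 CPM on their 4 UMIs, so 2.79 is no ratio of the mean levels. With the stricter gate the step from HCs to Müller cells did not pass (7 retinas, log2 difference 0.48, adjusted p = 0.833, exact sign-flip test). With 7 retinas that test could hardly pass after adjustment, so nothing is read from its not passing. BCs and microglia were not neighbours with that gate. With a pseudocount of 10 the step from BCs to microglia did not pass (adjusted p = 0.083, exact sign-flip test). The steps from Müller cells to BCs, microglia to rods and rods to cones did not pass. The steps from RGCs to astrocytes, astrocytes to ACs and ACs to HCs did not pass. The order of the upper classes turned with the set: astrocytes held 116 CPM and RGCs 109 in the set of 7, against 63.9 and 105 in the set of 8, where ACs held 64.1. Among the infant retinas astrocytes were highest as well. RGCs and ACs, which are not neighbours in this order, were not compared directly, and RGCs (65.9 to 154 CPM) overlapped ACs (51.3 to 73.3) at the lower end of their range.

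**Figure D1:**
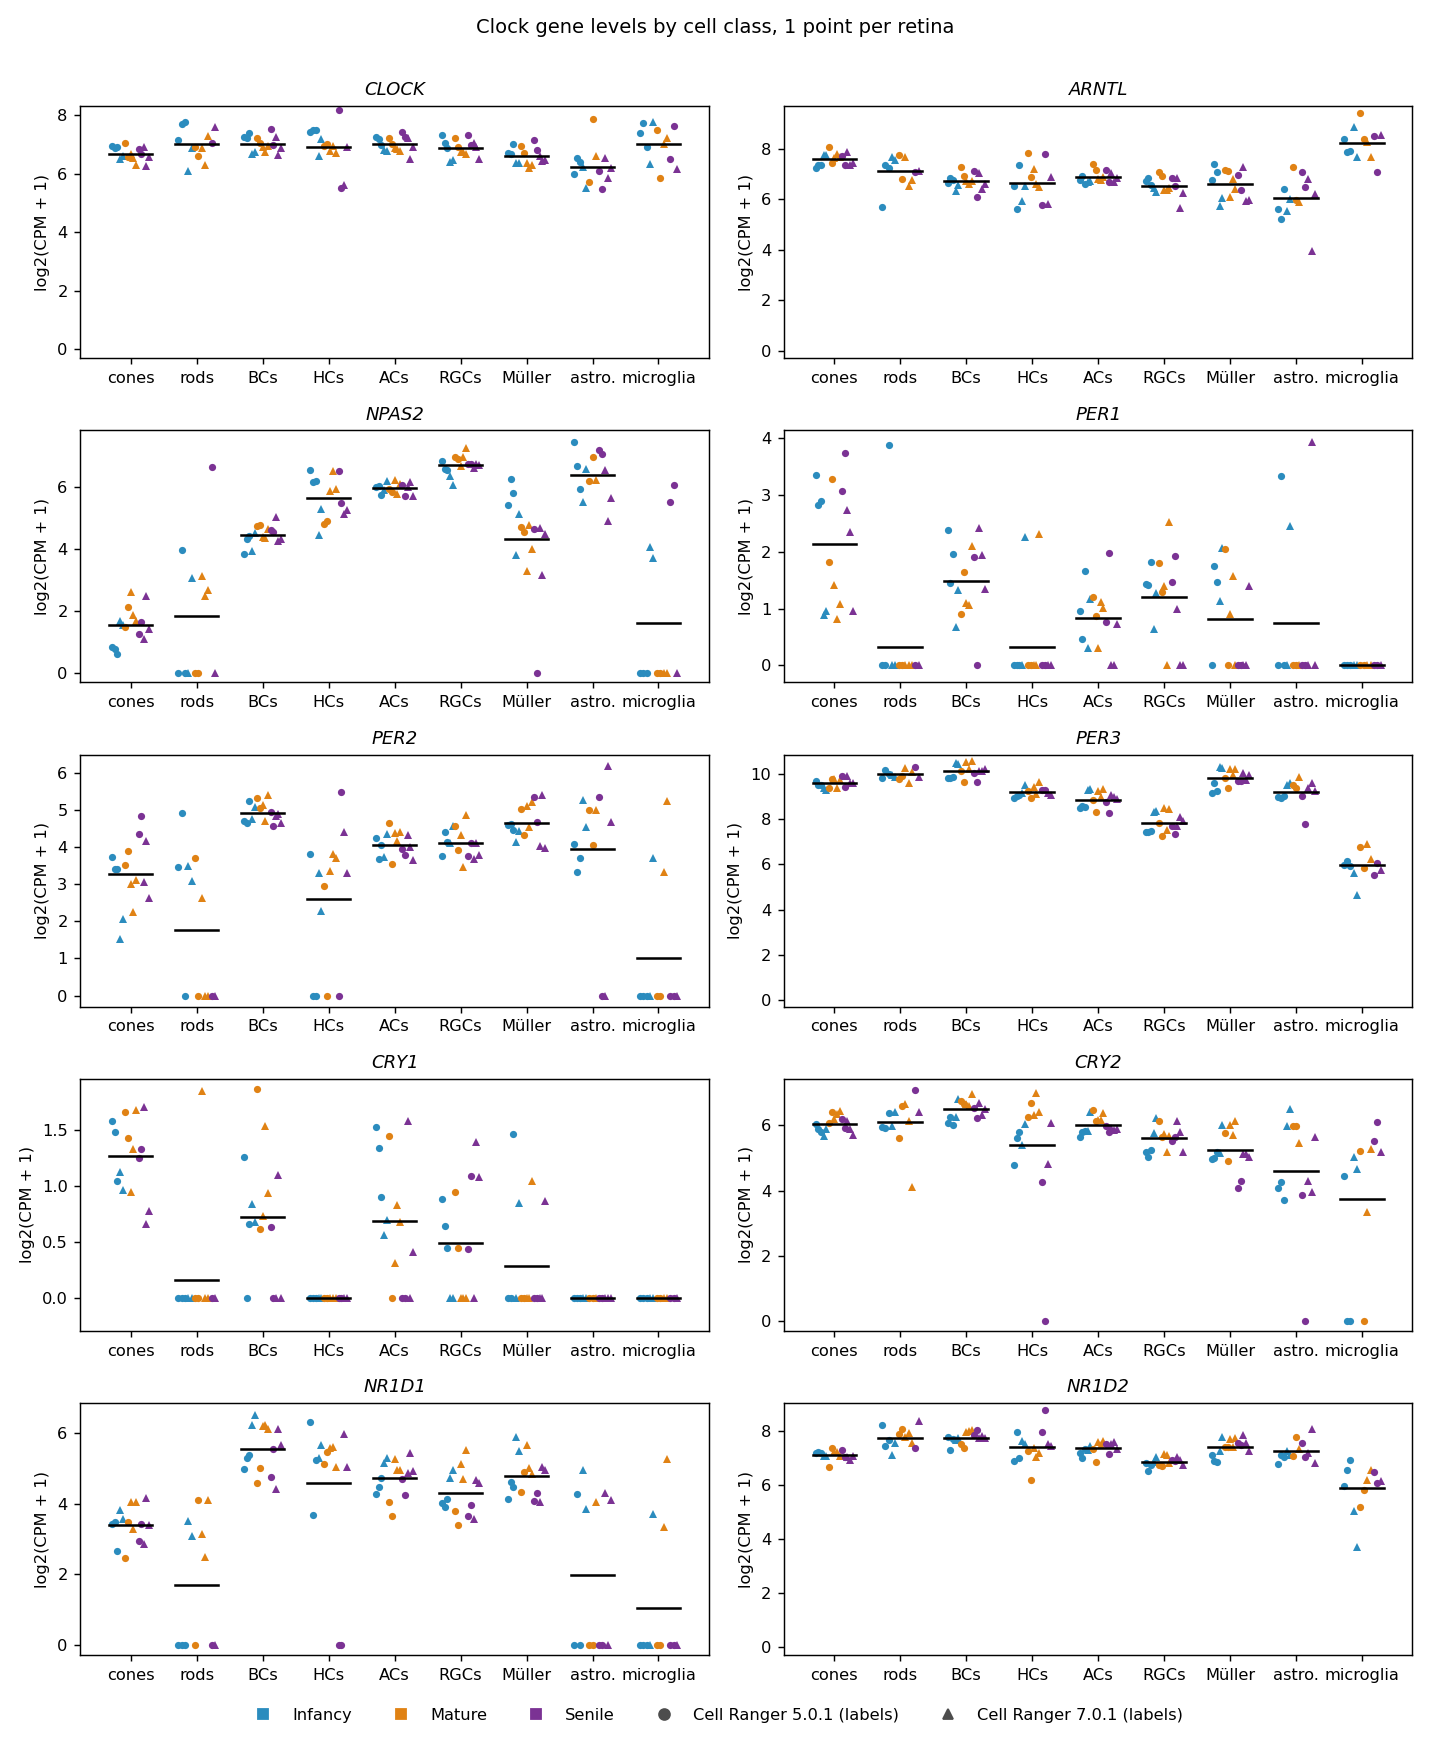
Levels of the 10 clock genes in 9 classes, as log2(CPM + 1) on each vertical axis, 1 point per retina with at least 20 nuclei of the class, coloured by stage and shaped by Cell Ranger version of the labels; black lines are means. NPAS2 is low in cones and highest in RGCs, ARNTL is highest in microglia and cones, and PER3 is lowest in microglia and RGCs.

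Among the repressors, PER3 differed widely between classes. It stood at 1136 CPM ± 242 in BCs (n = 15), 1021 ± 142 in rods (n = 12), 934 ± 226 in Müller cells and 781 ± 109 in cones. It stood at 482 ± 117 in ACs, 237 ± 73.3 in RGCs and 65.8 ± 26.2 in microglia (n = 12; lowest 24.2, median 61.7, highest 119). RGCs thus held 20.9% of the BC level and microglia 5.79%. The steps from HCs (597 ± 90.1) to ACs, from ACs to RGCs and from RGCs to microglia passed, with mean log2 differences of 0.35, 1.04 and 1.81 and adjusted p of 0.00732, 0.00488 and 0.00781 (exact sign-flip test). ACs were above RGCs in 15 of 15 retinas and RGCs above microglia in 12 of 12. With the stricter gate the latter 2 steps passed and that from HCs to ACs did not (7 retinas, adjusted p = 0.156, exact sign-flip test). The mean log2 difference from HCs to ACs was 0.31 there. With 7 retinas even the smallest p of this test could hardly pass the adjustment, so nothing is read from its not passing. BCs, rods, Müller cells, cones and astrocytes were not separated step by step, and in the set of 7 rods (1045 CPM) lay above BCs (936).

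PER2 was highest in BCs at 30.0 CPM ± 5.79 (n = 15; lowest 22.7, median 28.7, highest 41.1) and in Müller cells at 25.7 ± 8.79. In the set of 8 astrocytes (31.3) lay above BCs (30.0). RGCs and ACs held 16.9 ± 5.04 and 16.2 ± 3.92. Cones held 10.4 ± 6.85 and ranged from 1.86 to 27.6, the widest relative range of this gene among the 5 classes with 15 retinas. No neighbouring classes of PER2 passed, the step from ACs to cones coming nearest with an adjusted p of 0.052 (exact sign-flip test). PER1 had its highest mean in cones, at 4.59 CPM ± 3.73 on 217 UMIs, against 2.07 ± 1.30 in BCs on 80 UMIs. This order came from the set of 7, with 7.54 ± 3.07 in cones and 2.09 ± 1.39 in BCs, whereas the set of 8 had 2.00 ± 1.84 and 2.05 ± 1.31. The step from cones to the next class, astrocytes with 3 UMIs, did not pass (adjusted p = 0.0635, exact sign-flip test). Its other 7 classes rested on at most 47 UMIs, and none was seen in microglia, where 3 UMIs over all retinas would be 5.26 CPM.

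The CRY genes encode the partners of the PER proteins in repression. CRY2 was highest in BCs at 90.1 CPM ± 17.3, followed by rods at 74.5 ± 29.3, cones at 65.3 ± 11.4 and ACs at 64.5 ± 11.9, and lowest in microglia at 25.6 ± 20.7. None of its 8 steps between neighbours passed. CRY1 had its highest mean level in cones, at 1.46 CPM ± 0.554 on 75 of its 371 UMIs, above BCs with 0.783 ± 0.753 in 12 of 15 retinas (log2 difference on the log2(CPM + 1) scale 0.54, adjusted p = 0.0297, exact sign-flip test). That step did not pass with the stricter gate (adjusted p = 0.11, exact sign-flip test), and with the looser one cones and BCs were not neighbours. It had no UMI in HCs, astrocytes and microglia, where 3 UMIs would be 1.06, 1.83 and 5.26 CPM. These limits cover counting error only.

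The REV-ERB pair differed in class pattern. NR1D1 was highest in BCs at 50.2 CPM ± 22.6 (n = 15; lowest 20.3, median 45.4, highest 90.7), intermediate in HCs (36.6 ± 21.8), Müller cells (28.7 ± 12.9) and ACs (27.0 ± 8.91), and low in cones at 10.1 ± 3.73 and in rods at 5.22 ± 6.34. Astrocytes lay between cones and rods in this order, and microglia had the lowest mean. By library set, astrocytes held 2.61 CPM in the set of 7 and 15.6 in the set of 8, and microglia 0 and 11.7. Cones held 20.2% of the BC level. The steps from ACs to RGCs (20.8 ± 10.1) and from RGCs to cones passed, each with the upper class higher in 14 of 15 retinas (log2 differences 0.42 and 0.92, adjusted p = 0.0174 and 0.00488, exact sign-flip test). With the stricter gate the step from ACs to RGCs did not pass (adjusted p = 0.113, exact sign-flip test) and that from RGCs to cones did, whereas with the looser gate the latter classes were not neighbours. NR1D2 was at its highest in rods, 224 CPM ± 58.0, and BCs, 220 ± 32.8, and was present in every class. Rods were above BCs in the set of 7 (227 and 206 CPM) and below them in the set of 8 (220.1 and 232). Cones (140 ± 15.8) exceeded RGCs (118 ± 13.7) in 13 of 15 retinas, and RGCs exceeded microglia (67.4 ± 30.6) in 10 of 12, with adjusted p of 0.00977 and 0.0174 (exact sign-flip test). The first of these steps passed with the stricter gate as well, where RGCs and microglia were not neighbours. Over the 10 genes, all 13 steps that passed had a mean difference of the same direction in both library sets. These steps were chosen on the same retinas pooled, which made such agreement likely, so it is a description only.

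Each class was also set against the mean of the others with edgeR's quasi-likelihood test, retina as a block, for the 8 clock genes above its filter on low counts (PER1 and CRY1 were below it). The classes differ in most features, so the counts are read against the percentage of all 12139 features called. In cones 6 of 8 were called (background 74.4%), in rods 5 (47.0%), in BCs 6 (62.0%), in HCs 6 (42.1%) and in ACs 5 (64.7%). For RGCs the count was 7 (66.7%), for microglia 8 (54.9%), for Müller cells 5 (58.4%) and for astrocytes 5 (44.5%). Nothing particular to the clock genes is read from these counts. By direction, all 6 calls in BCs were higher, as were all 6 in HCs and all 5 in ACs, whereas 7 of the 8 in microglia were lower. Of the calls over all features, 69.1% were higher in BCs, 53% in HCs, 69.9% in ACs and 23.7% in microglia. The scaling matters here, since with library sizes alone the median of all features in microglia moved from -0.783 to 0.027. Counted only where both scalings made the call in the same direction, BCs had 6 higher and 0 lower of 8, beside 30.7% and 19.2% of all features. ACs had 5 and 0 (36.9% and 19.5%), Müller cells 4 and 1 (29.0% and 23.2%), cones 3 and 2 (35.1% and 27.2%) and RGCs 1 and 3 (37.2% and 20.8%). HCs had 3 and 0 (18.6% and 19.8%), rods 2 and 3 (21.0% and 18.6%), astrocytes 3 and 2 (21.0% and 20.4%) and microglia 1 and 5 (13.0% and 16.2%).

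By this fit cones had ARNTL (log2 difference from the mean of the other classes 0.96), PER3 (1.03) and CRY2 (0.58) higher and NPAS2 (-3.42) and NR1D1 (-0.60) lower, under either scaling. RGCs had NPAS2 higher (2.64) and ARNTL (-0.29), PER3 (-1.09) and NR1D2 (-0.22) lower. In BCs the calls were CLOCK (0.38), PER2 (1.42), PER3 (1.50), CRY2 (1.02), NR1D1 (1.91) and NR1D2 (0.80). The call for CLOCK in microglia was lower with one scaling (-0.45) and in the other direction without a call (0.37). Adjusted p for the values of cones, RGCs and BCs given here ranged from 1.89e-47 (PER3 in BCs) to 0.00319 (NR1D2 in RGCs) in edgeR's quasi-likelihood test.

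Other genes of the clock were taken from a list of 39: ROR receptors and ARNTL2, output factors, kinases and ubiquitin ligases, cofactors, and retinal inputs and outputs. The output factor DBP was listed at 0 in every library, as was ADCYAP1R1. The class test could be run for 23 of the list. In BCs 16 were higher and 1 lower, in cones 9 and 8, in ACs 10 and 3, in microglia 4 and 12, and in both RGCs and Müller cells 10 and 6, with the first scaling. Of all features tested, 42.8% were higher and 19.2% lower in BCs, 47.2% and 27.2% in cones, 45.3% and 19.5% in ACs, and 13% and 41.9% in microglia. For RGCs these shares were 45.9% and 20.8%, and for Müller cells 35.2% and 23.2%. RORA, the activator opposed to REV-ERB, was at 6488 CPM in BCs and 464 in cones, and lower in cones and rods than in the mean of the others (log2 -1.99 and -2.33). RORB, needed for photoreceptor development, was higher in Müller cells (log2 2.00). AANAT, the enzyme that makes the melatonin precursor, was higher in cones (2.86) and rods (2.77). USP2, a clock-controlled deubiquitinase, was higher in the same classes (2.95 and 2.43). BTRC, a ubiquitin ligase subunit that targets PER proteins, was higher in cones (1.42), whereas CSNK1E, a kinase that phosphorylates PER, was lower there (-1.38). HLF and TEF, PAR bZIP output factors, were lower in cones (-1.74 and -1.65) and higher in BCs (2.24 and 0.94).

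Whether clock genes differed between stages was asked first in the whole retina, where a changed share of a class and a changed level per nucleus cannot be told apart. None of the 10 passed an adjusted p of 0.05 over the 28977 features tested, in any of 3 contrasts, by the edgeR test that also held the library set. The background was low as well: 1.64% of features were called between senile and infancy, 0.00% between senile and mature and 0.994% between mature and infancy. At an unadjusted p under 0.05 each contrast held 2 of the 10 genes, beside 11.2%, 9.69% and 12.3% of all features. DESeq2 called 1, NR1D1 between senile and infancy, where it called 2.94% of all features. The median log2 fold change of the 10 genes was -0.06, -0.21 and 0.09 in the 3 contrasts, beside -0.014, 0.03 and -0.023 over all features.

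NR1D1 came nearest. Its levels in the set of 7 libraries were 21.1, 20.6 and 23.7 CPM in Infancy 1 to 3, 13.4 and 17.3 in Mature 1 and 2, and 17.0 and 17.3 in Senile 1 and 2. In the set of 8 they were 45.4 and 51.2 in Infancy 4 and 5, 45.1, 33.3 and 45.1 in Mature 3 to 5, and 27.5, 40.9 and 33.3 in Senile 3 to 5. Within either set every senile retina lay below every infant one, and the library set made a larger difference than the stage. Depth also differed between stages within the sets, with values given below for PER2, and its part was not tested. The log2 fold change from infancy to senile was -0.52 ± 0.15 (SE), with a 95% interval of -0.84 to -0.21 and an adjusted p of 0.124 in edgeR. DESeq2 gave -0.52 and an adjusted p of 0.038, and over all alternatives the adjusted p ran from 0.038 to 0.999.

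CRY2 was highest in the mature retinas: 74.6, 76.9, 78.5, 73.1 and 97.1 CPM in Mature 1 to 5, against 54.5, 54.8, 52.8, 56.2 and 87.3 in Infancy 1 to 5 and 65.7, 54.2, 77.9, 62.8 and 64.7 in Senile 1 to 5. Infancy 5 overlapped the mature range, and so did Senile 3. The log2 fold change was 0.36 ± 0.13 from infancy to mature (adjusted p = 0.268) and -0.38 ± 0.13 from mature to senile (adjusted p = 0.395, edgeR). NPAS2 stood at 42.8 CPM ± 3.44 in senile retinas, 50.002 ± 3.57 in mature and 48.4 ± 6.74 in infant ones (SD, n = 5), with an interval for senile against mature of -0.54 to -0.07 on the log2 scale before adjustment (adjusted p = 0.425, edgeR). ARNTL reached 195 CPM in Mature 1 and lay between 89.0 and 154 in the other 14 retinas.

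For CLOCK, PER2 and NR1D2 the intervals bound the difference between senile and infancy on the log2 scale: -0.25 to 0.15 for CLOCK, -0.40 to 0.26 for PER2 and -0.25 to 0.19 for NR1D2. For PER1, with 2.03 CPM ± 1.17 in infancy and 3.12 ± 2.19 in the senile stage, the interval ran from 0.02 to 1.74 before adjustment (adjusted p = 0.433, edgeR). When 5 classes were given equal weight PER1 changed sign (-0.16). Differences within such intervals were not detectable here.

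**Figure D2:**
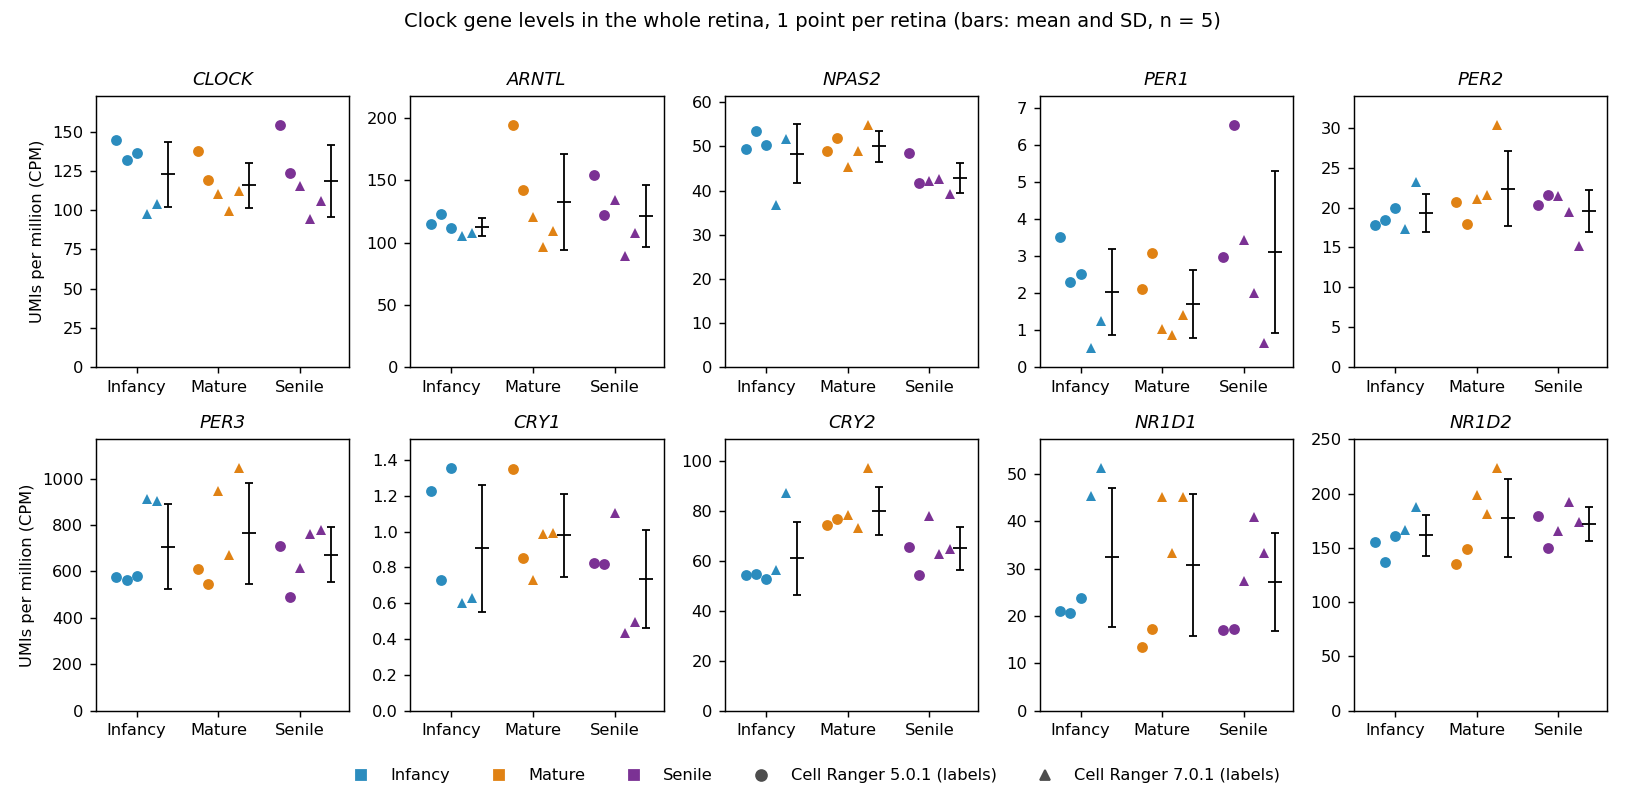
Level of each clock gene in the whole retina (vertical axes, CPM from 0) by stage, 1 point per retina; circles are the 7 libraries of Cell Ranger 5.0.1 and triangles the 8 of 7.0.1 by the labels, and bars give the mean and SD of 5 retinas. NR1D1 separates by shape (13.4 to 23.7 CPM against 27.5 to 51.2), whereas the stages overlap.

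The 2 library sets moved the clock genes in both directions. NR1D1 was at 18.7 CPM ± 3.40 in the set of 7 and 40.2 ± 8.05 in the set of 8 (log2 difference 1.06, adjusted p = 0.000189, edgeR), with no overlap. PER3 was higher in the set of 8 as well (829 ± 146 against 583 ± 67.6; 0.39, adjusted p = 0.012). CLOCK (105 ± 7.33 against 135 ± 12.1; -0.49), ARNTL (109 ± 14.0 against 138 ± 29.4; -0.48) and PER1 (1.397 ± 0.945 against 3.30 ± 1.51; -1.51) were lower there, with adjusted p of 0.000587, 0.00441 and 0.00343. These 5 of 10 stand beside 36.4% of all features called between the sets. The difference in NR1D1 passed within 4 classes, at a log2 value of 1.11 in BCs, 0.83 in ACs, 0.90 in Müller cells and 1.00 in RGCs, whereas in cones it was 0.56 with an adjusted p of 0.138 (edgeR). For PER3 it was 0.48 to 0.63 in these 4 classes but -0.09 in cones (784 CPM ± 107 in the set of 7 and 778 ± 119 in the set of 8). In cones PER2 was at 14.7 ± 6.61 CPM in the set of 7 and 6.63 ± 4.66 in the set of 8 (-1.46, adjusted p = 0.00222), beside 30.0 in both sets in BCs. PER1 in cones differed by -2.19 (adjusted p = 0.00182, edgeR). The libraries of the set of 7 held 13429873 to 30034007 UMIs and those of the set of 8 held 18440752 to 58734300, so that depth differed between the sets with an overlap, and the part of version and of depth in these differences was not tested.

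Within classes the same question was asked where at least 4 retinas of every stage had 20 nuclei, which left cones, BCs, HCs, ACs, RGCs and Müller cells. The filter on low counts kept 8 of the 10 genes (6 in HCs), giving 138 tests of a gene in a class and contrast. None passed an adjusted p of 0.05 in edgeR, where 23 (16.7%) lay under 0.05 unadjusted, beside 6.99% to 12.2% of all features in the same classes and contrasts. DESeq2 gave an adjusted p in 134 tests, of which 2 passed, both in cones, where it called 3.20% of all features between senile and infancy and 2.77% between mature and infancy. The share of features called between senile and infancy was 2.16% for cones, 1.19% for BCs, 0.278% for HCs, 1.03% for ACs, 1.19% for RGCs and 1.14% for Müller cells. Between mature and infancy it was 1.49%, 0.934%, 0.104%, 0.601%, 0.780% and 0.713% in the same order. Between senile and mature it was 0.00718%, 0.00%, 0.139%, 0.0143%, 0.00% and 0.0713%. With so few features called, 0 of 8 clock genes is near the background in every class.

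The smallest adjusted p belonged to PER2 in cones, between infancy and the senile stage. In the set of 7 libraries its levels were 12.4, 9.68 and 9.62 CPM in Infancy 1 to 3, 10.4 and 13.8 in Mature 1 and 2, and 19.3 and 27.6 in Senile 1 and 2. In the set of 8 they were 1.86 and 3.17 in Infancy 4 and 5, 7.03, 3.80 and 7.73 in Mature 3 to 5, and 7.37, 16.9 and 5.21 in Senile 3 to 5. Every senile retina was above every infant one of its own set, whereas the stages overlapped when the sets were pooled. The values rest on 7 to 91 UMIs per retina. Depth also differed between stages within the sets. Median UMIs per barcode were 4437 and 4347 in Infancy 4 and 5, against 2367, 2268 and 3708 in Senile 3 to 5. In the set of 7 they were 1974, 2180 and 1725 in Infancy 1 to 3, against 2315 and 1461 in Senile 1 and 2. The part of depth in the stage estimates was not tested. The log2 fold change was 1.33 ± 0.34 (SE; 95% interval 0.61 to 2.06, adjusted p = 0.0556, edgeR). It passed with DESeq2 (adjusted p = 0.00706), without the filter on low counts (0.00279), with the looser gate (0.0443) and without Senile 5 (0.0314), and did not pass in the other alternatives, where the adjusted p reached 0.72 with stage alone in the model. In BCs the same gene had 29.9, 22.7, 27.6, 28.7 and 24.2 CPM in Senile 1 to 5, inside the range of 24.2 to 36.7 of the infant retinas but for Senile 2.

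**Figure D3:**
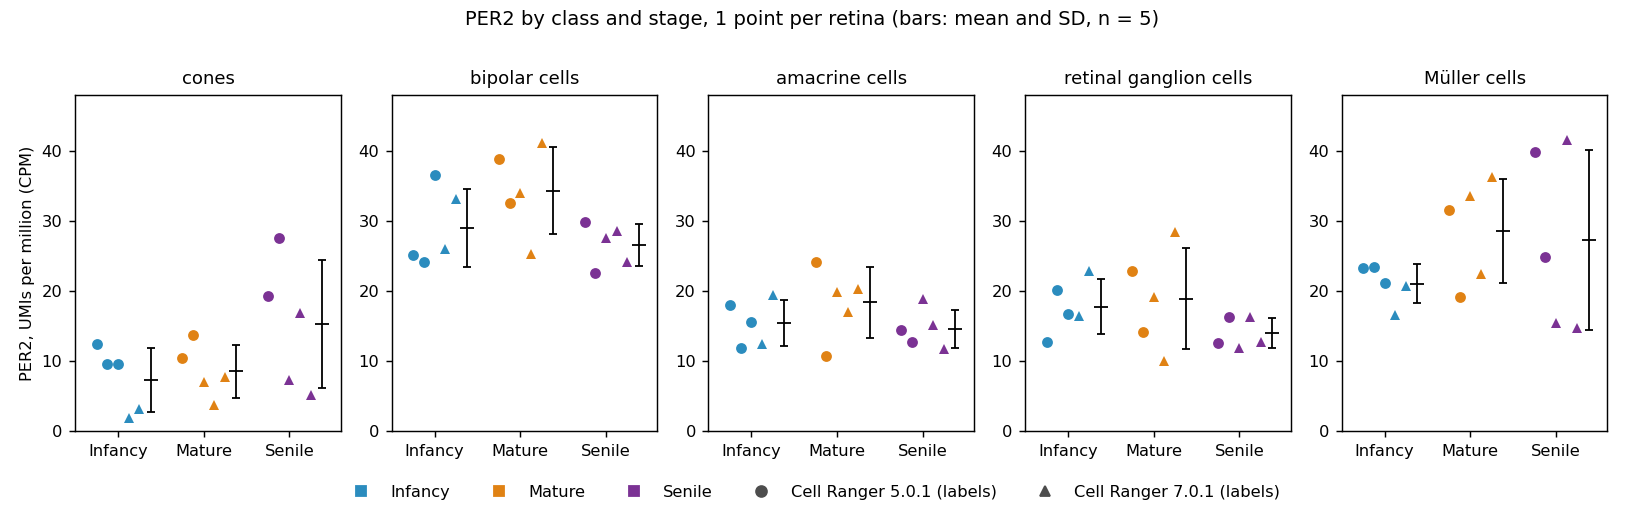
PER2 (vertical axes, CPM from 0) in 5 classes by stage, 1 point per retina, with the mean and SD of 5 retinas beside each stage; circles are libraries of Cell Ranger 5.0.1 and triangles of 7.0.1 by the labels. In cones the circles lie above the triangles within every stage, and within each shape the senile retinas lie above the infant ones, whereas the other classes overlap.

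CRY2 had the next smallest values. In cones it was at 64.5, 57.7, 54.0, 49.8 and 57.5 CPM in Infancy 1 to 5, 66.1, 83.8, 72.7, 79.3 and 85.1 in Mature 1 to 5, and 71.8, 59.7, 69.1, 57.6 and 51.4 in Senile 1 to 5. It stood at a mean of 56.7 CPM ± 5.43 for infant, 77.4 ± 7.95 for mature and 61.9 ± 8.42 for senile retinas (SD, n = 5), and no infant retina (49.8 to 64.5) reached the mature range (66.1 to 85.1). The log2 fold change from infancy to mature was 0.43 ± 0.12 (adjusted p = 0.102, edgeR), and it passed with DESeq2 (0.0398) and without Mature 1 (0.0473), but not in the other alternatives, up to 0.355. In Müller cells CRY2 went from 53.3 ± 15.6 in mature to 26.7 ± 8.71 CPM in senile retinas (log2 -1.02 ± 0.23, adjusted p = 0.109, edgeR), on 3 to 77 UMIs per retina. NR1D1 had a negative estimate between infancy and the senile stage in all 5 classes where it was tested, from -0.20 in cones to -0.78 in Müller cells. Its smallest adjusted p there was 0.29 (edgeR), and in BCs it passed without the filter on low counts (log2 -0.74, adjusted p = 0.047). The lowest estimate of any clock gene in a class for this contrast was -1.11, in Müller cells. No adjusted p of the contrast in that class was under 0.19 (edgeR). For ARNTL the interval of senile against infancy in cones was -0.34 to 0.22 on the log2 scale, and for CLOCK it was -0.39 to 0.13.

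**Figure D4:**
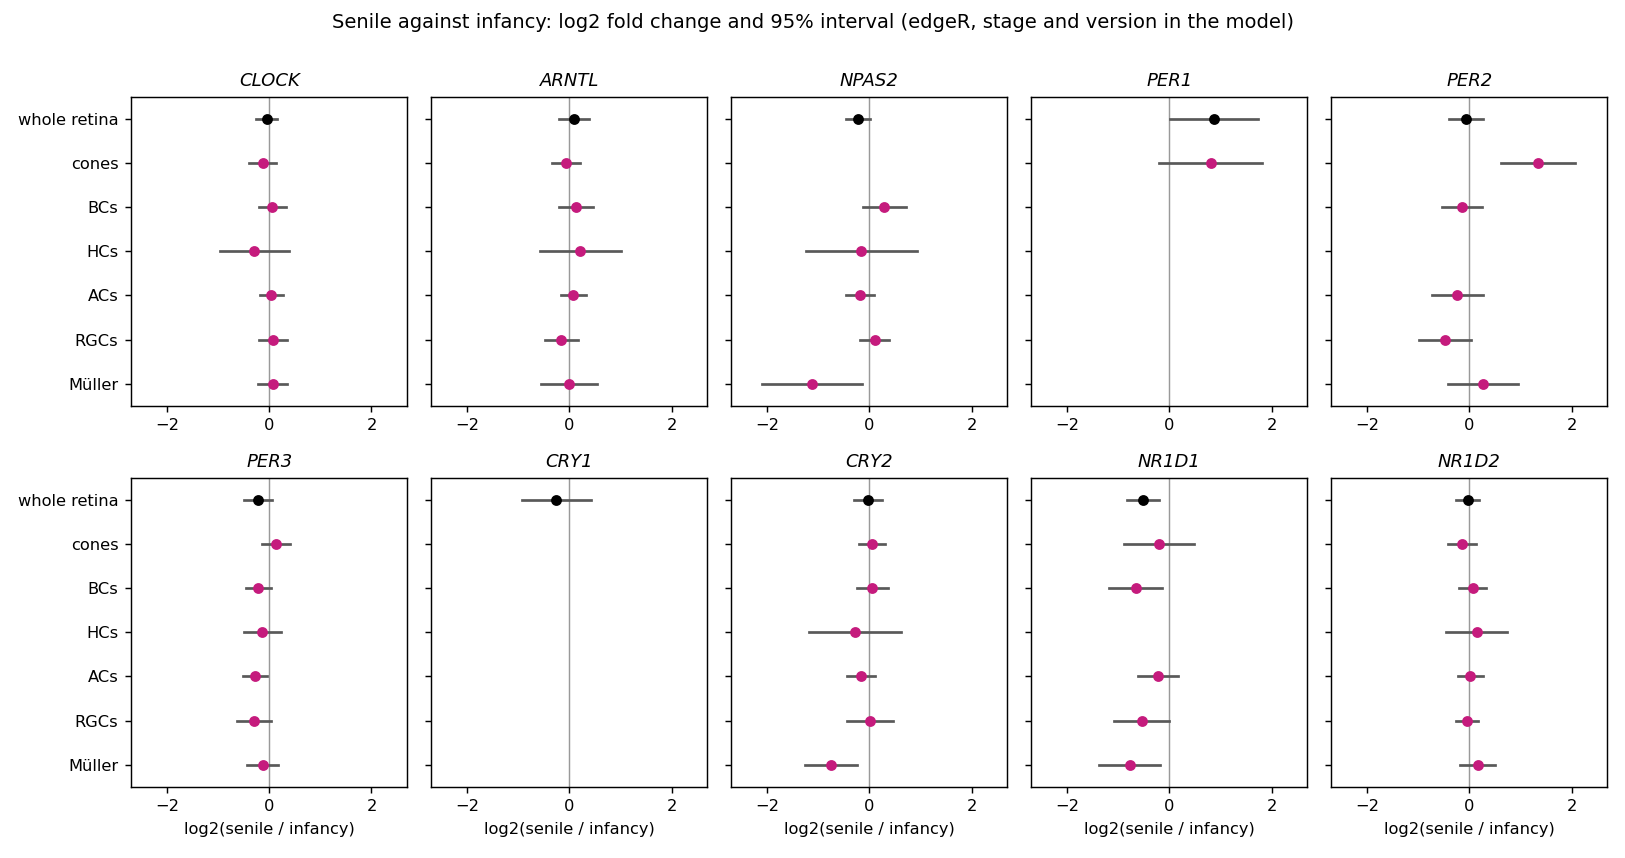
Log2 fold change of senile against infant retinas (horizontal axes) with its 95% interval, for each clock gene in the whole retina and in the 6 classes that could be tested; a missing row was below the filter on low counts. PER2 in cones lies farthest to the right (1.33), and no estimate passed an adjusted p of 0.05.

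Whether the stage difference itself differed between photoreceptors and inner neurons was tested on the log2(CPM + 1) in cones minus the mean of BCs and ACs, senile against infant retinas, by 2-sided exact permutation of 5 against 5. None of the 10 genes passed after adjustment over the 10, and 1, NR1D2, had an unadjusted p under 0.05. With 5 against 5 retinas a single gene could not pass this adjustment even at the smallest p possible. Nothing is therefore read from none passing. For NR1D2 the cone minus inner value was -0.56 ± 0.14 in senile and -0.30 ± 0.23 in infant retinas (SD, n = 5; exact permutation p = 0.0476, adjusted p = 0.317). For PER2 it was -0.56 ± 0.95 and -1.63 ± 1.00, a difference of 1.07 (exact permutation p = 0.127, adjusted p = 0.377). That test ignores the library sets. With stages permuted within each set, a test added after seeing the data, PER2 had a mean difference of 1.39 (1.19 in the set of 7 and 1.59 in the set of 8) and CLOCK one of -0.17. Each had an exact permutation p of 0.01, the smallest that 100 arrangements can give, and an adjusted p of 0.05, at and not under the threshold. Every senile retina had a higher PER2 value of cones minus inner neurons than every infant one of its set. A single gene at that smallest p would have an adjusted p of 0.1, and 3 of the 10 genes would have to reach it for any to pass, so that the second test could hardly pass by its design and nothing is read from its not passing. The 31 other clock genes that could be tested in the whole retina held no call in any contrast of stages, neither higher nor lower, and none was called within the 6 classes.

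Clock genes were last compared with each other across retinas, in whole-retina log2(CPM + 1), for 7 pairs named by their places in the loop; an 8th, NR1D1 with DBP, could not be computed. Because the library sets form 2 clusters, the relations were taken within each set, with exact permutation p adjusted over 14 relations. ARNTL and NR1D1 were inversely related in the set of 7 (Pearson r = -0.919, exact permutation p = 0.000595, adjusted 0.00833; Spearman rho = -0.964, p = 0.00278, adjusted 0.0194). Without the 2 retinas farthest from the median of ARNTL r was -0.788 over 5 retinas. In the set of 8 the same pair had r = -0.298 and rho = -0.0476 (adjusted exact permutation p = 0.788 and 0.935), and r was 0.497 without its 2 farthest retinas. By whole-retina levels the inverse relation thus passed in 1 of 2 sets, with differences between stages left in. After centring within stage and set, r over 15 retinas was -0.491 (permutation p = 0.063, adjusted 0.11, rho = -0.436) and -0.109 without the 2 farthest, so that the relation no longer passed. That permutation exchanged the 15 centred values freely, although the means of each stage and set had been removed. The p-values after centring are therefore too small, here and for the other pairs, and no call is read from them. The centred r was -0.811 within the set of 7 and -0.361 within the set of 8. With 5 classes given equal weight, a choice made after seeing the data, r was -0.757 in the set of 7 and -0.734 in the set of 8 (rho = -0.75 and -0.31), and neither passed (adjusted exact permutation p = 0.212 for both values of r). Without the 2 farthest retinas r was then -0.41 and -0.019. Mature 1 had both the highest ARNTL (195 CPM) and the lowest NR1D1 (13.4 CPM) of all 15 retinas. It also had the most nuclei assigned as cones, 2010, beside 539 BCs. Cones held 1.83 times the BC level of ARNTL and 20.2% of that of NR1D1. The part of class shares in the whole-retina relation was not tested.

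CLOCK and ARNTL were positively related in the set of 8 (r = 0.876, exact permutation p = 0.00313, adjusted 0.0219; rho = 0.929, adjusted 0.0194; r = 0.70 without the 2 farthest) and not detectably in the set of 7 (r = 0.168, adjusted exact permutation p = 0.818), again with stages left in. With equal weight of classes r was 0.819 and 0.345 in these sets, and neither passed (adjusted exact permutation p = 0.212 and 0.632). After centring within stage and set, r over 15 retinas was 0.856 (permutation p = 9e-05, adjusted 0.00063, rho = 0.832), with 0.812 within the set of 7 and 0.919 within the set of 8. This p is too small for the reason given for ARNTL with NR1D1, and no call is read from it. The r of this pair differed widely between the sets only with stages left in, and the difference was not tested. NR1D1 and PER3, both targets of the activator pair, were related in the set of 8 by Pearson's measure (r = 0.877, exact permutation p = 0.00526, adjusted 0.0245) but not by Spearman's after adjustment (rho = 0.762, adjusted 0.172), and in the set of 7 r was -0.189. Centred within stage and set, this pair no longer passed (r = 0.518, permutation p = 0.0468, adjusted 0.109; rho = 0.396), with -0.271 and 0.833 within the sets of 7 and 8. PER1 with PER2, ARNTL with PER2, ARNTL with PER3 and NPAS2 with NR1D1 passed in neither set. After that centring PER1 with PER2 had r = 0.622 (permutation p = 0.0132, adjusted 0.0462, rho = 0.55, adjusted 0.126). As p is too small after centring, no call is read from it. The r of this pair was 0.397 without its 2 farthest retinas, and -0.176 and 0.834 within the sets of 7 and 8. The other pairs of these did not pass after centring. Pooled over 15 retinas the first 3 pairs had r of -0.744, 0.682 and 0.841 (adjusted permutation p = 0.00332, 0.00903 and 0.00161), values that include the difference between the sets.

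**Figure D5:**
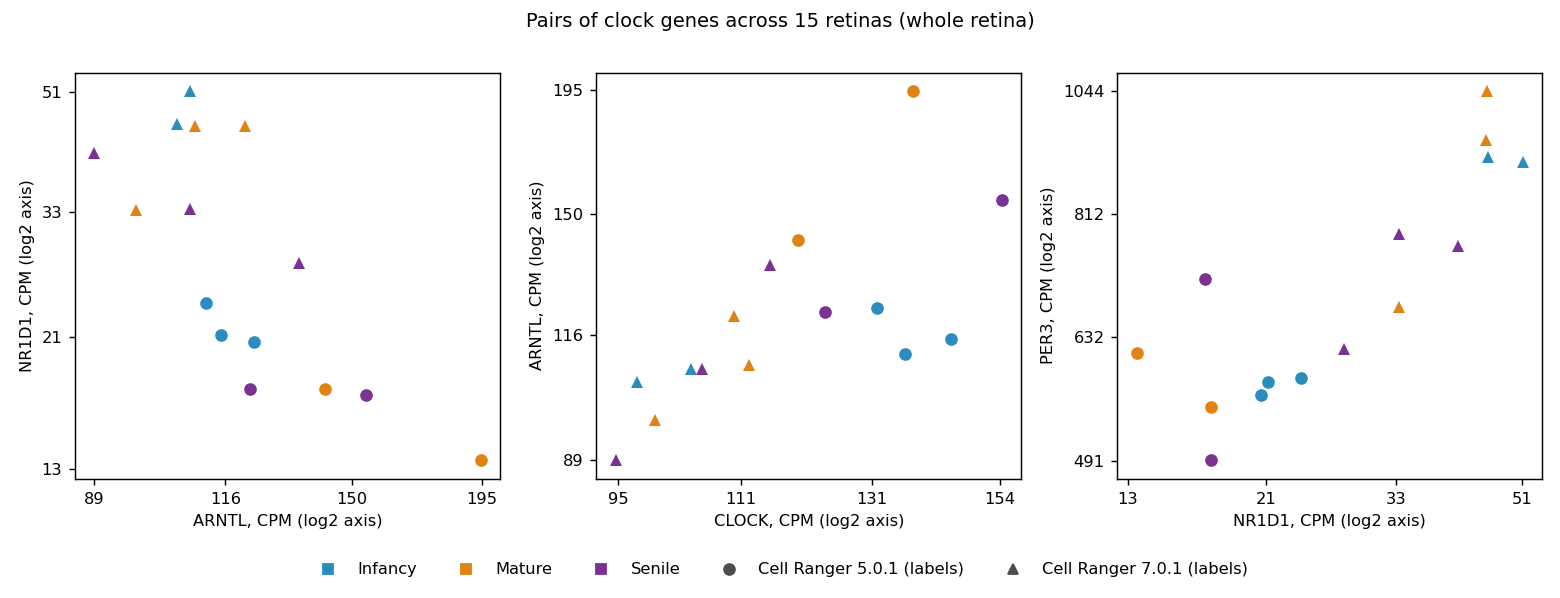
Whole-retina levels of 3 pairs of clock genes, CPM on log2 axes, 1 point per retina, coloured by stage and shaped by Cell Ranger version of the labels. ARNTL and NR1D1 fall along an inverse line among the 7 circles, CLOCK and ARNTL along a rising one among the 8 triangles, and NR1D1 and PER3 split by shape.

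For each gene the features most like it over the 15 retinas were found by Pearson r after centring within stage and set, among 8509 features compared. They were FUBP3, ZNF335 and BLMH for CLOCK (r = 0.955 to 0.921), SV2B, BICRA and LANCL1 for ARNTL (0.957 to 0.942), and NOS1AP, ZNF423 and SLC16A13 for NPAS2 (0.947 to 0.928). For PER1 they were UNC5A, DOLPP1 and NSMF (0.974 to 0.96), for PER2 C2ORF42 and TRIM27 (0.922 and 0.909), and for PER3 ARHGEF11, HS3ST5 and PCLO (0.965 to 0.958). For CRY1 they were CREBL2, HEATR1 and RETREG3 (0.895 to 0.891), for CRY2 RBMS2, TSPAN11 and SEPTIN9 (0.962 to 0.943), for NR1D1 FAM219A, SIX6OS1 and SESTD1 (0.958 to 0.944), and for NR1D2 TTLL7, ZFHX4 and SLC1A3 (0.955 to 0.915). No clock gene was among the 3 nearest of another. These are the highest of many values over 15 points that share libraries, and are given as a description only.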

How the data were processed

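Nuclei of 15 TS retinas were profiled, 5 per stage. The deposited values are raw counts of UMIs per feature and barcode, made by the authors with Cell Ranger (5.0.1 for 7 libraries and 7.0.1 for 8 in the labels' notes, other versions in some file headers and in the study's methods, which also name a later 3′ kit than the labels) on a TS genome; whether introns were counted is not given in the sources used here. The study's limits on nuclei were applied: above 200 genes, below 6000, and a mitochondrial share below 5%. They were assigned to classes by a negative binomial likelihood over marker genes, with a margin of 3 and at least 2 own markers, a rule and thresholds set after the data were seen; nuclei better described by a pair of classes, as doublets would be, stayed unassigned. Clock genes took no part. The 10 genes, the other lists and the tests were chosen with earlier results of these data known.

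Counts were summed per retina, and per retina and class from 20 nuclei. Stage was tested with edgeR 4.0.16 (TMM, filterByExpr, quasi-likelihood test, stage and Cell Ranger version in the model) in R 4.3.3, with Benjamini-Hochberg adjustment over all features and a threshold of 0.05; the scripts were tested on simulated data. A class was tested against the mean of the others with retina as a block. Levels are CPM with a pseudocount of 1 on the log2 scale. Neighbouring classes were compared by exact sign flips, and correlations by permutation (100000 draws for 15 retinas, exact within sets), with scipy 1.17.1. DESeq2 1.42.0, other scalings, filters, gates and covariates and the omission of each retina were alternatives. Named were all 10 genes, the 3 features most like each (Pearson r after centring within stage and version, gene symbols with a mean of at least 5 CPM), and, of the other clock genes, those called in at least 2 classes; the examples printed from these were chosen after their values were seen, and a few items are not reported here. Libraries held 13429873 to 58734300 UMIs, floors (3 UMIs) cover counting error only, and the 95% intervals of fold changes include the spread between retinas.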

Additional observations from a re-analysis of the deposited data

Results flagged for a closer look

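In 168 groups of 4 or 5 retinas, 8 held 1 retina far from the others by Dixon's criterion at 95%, where chance alone would give about 1 in 20 groups. CRY2 accounted for 5 of them. In the whole retina Infancy 5 stood at 87.3 CPM against 52.8 to 56.2 in the other infant retinas, and Mature 5 at 97.1 against 73.1 to 78.5 in the other mature ones. Infancy 5 was also apart within classes, with CRY2 at 110 CPM in BCs against 63.5 to 75.9, at 83.9 in ACs against 48.4 to 55.7 and at 63 in Müller cells against 30.4 to 35.4. NPAS2 in the whole retina was at 36.6 CPM in Infancy 4, below the 49.5 to 53.6 of the other infant retinas. PER1 in cones was at 8.74 CPM in Mature 2, above 0.759 to 2.55. NR1D2 in BCs was at 159 CPM in Infancy 2, below 205 to 222.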

How the results depend on the processing

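Counts of clock genes called between stages were 0 in the main fits. They became 1 with DESeq2 in the whole retina (senile against infancy), in cones senile against infancy (also with no filter on low counts and with the looser gate) and in cones mature against infancy, and 1 without the filter in BCs senile against infancy. Leaving out each retina gave 0 to 1 in cones in both contrasts, the 1 being without Senile 5 (PER2) and without Mature 1 (CRY2). Beside these calls, the share of all features was 2.94%, 3.20% and 2.77% with DESeq2, 1.88% (cones) and 1.20% (BCs) without the filter, 2.10% with the looser gate, and 2.00% and 1.11% without those retinas. PER1 in the whole retina changed sign with equal weight of classes (-0.158, adjusted p = 0.818, limma). Neighbouring classes that passed numbered 13, and 7 with the stricter gate, where 5 of the 13 passed, 5 did not and 3 pairs were no longer neighbours. Steps with HCs rested on 7 retinas with that gate and could hardly pass after adjustment. The class called highest over all retinas was also highest in 7, 8 and 3 of 8 genes within infant, mature and senile retinas, and in 5 and 6 of 8 within the sets of 7 and 8, the latter added after seeing the data. Among senile retinas the highest class turned to rods for CLOCK, PER3 and CRY2, to astrocytes for PER2 and to HCs for NR1D2. Rods rested there on 2 retinas and microglia on 3, so no change of pattern with stage is read from this. With library sizes alone, a scaling chosen after seeing the data, calls in HCs went from 6 to 3, in RGCs from 7 to 4 and in microglia from 8 to 6, whereas they rose from 5 to 7 in Müller cells, from 6 to 7 in cones and in BCs (1 of these lower) and from 5 to 6 in rods, and stayed 5 in ACs and astrocytes. The share of all features called with library sizes alone was 47.7% in HCs, 66.4% in RGCs, 42.4% in microglia, 62.8% in Müller cells, 71.9% in cones, 59.8% in BCs, 46.7% in rods, 63.6% in ACs and 42.8% in astrocytes.

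Correlations changed both with the library sets, a split added after seeing the data, and with centring by stage. Centred within stage and set, r was -0.491 for ARNTL with NR1D1, 0.518 for NR1D1 with PER3, 0.622 for PER1 with PER2, 0.19 for ARNTL with PER2, 0.261 for ARNTL with PER3 and 0.226 for NPAS2 with NR1D1 (adjusted permutation p = 0.11, 0.109, 0.0462, 0.495, 0.487 and 0.487). The calls of the first 2 pairs were lost by this centring. PER1 with PER2 came under the threshold. Its p is too small, since the centred values were exchanged freely, and no call is read from it. Of these, ARNTL with PER2 (-0.000635), ARNTL with PER3 (-0.369) and NPAS2 with NR1D1 (-0.224) had the other sign when pooled. With equal weight of classes ARNTL with PER2 was 0.213 over all retinas. Within the sets that weighting, added after seeing the data, left no pair past the threshold: in the set of 7, r was -0.757 for ARNTL with NR1D1, 0.388 for ARNTL with PER2, 0.76 for ARNTL with PER3, -0.704 for NR1D1 with PER3, -0.159 for PER1 with PER2 and 0.345 for CLOCK with ARNTL, and in the set of 8 it was -0.734 for ARNTL with NR1D1, 0.5 for NR1D1 with PER3 and 0.819 for CLOCK with ARNTL. Within the set of 7, r was 0.327 for ARNTL with PER2, 0.481 for ARNTL with PER3, 0.296 for NPAS2 with NR1D1, -0.189 for NR1D1 with PER3 and 0.168 for CLOCK with ARNTL. Within the set of 8, it was -0.298 for ARNTL with NR1D1, 0.138 for ARNTL with PER2 and 0.326 for NPAS2 with NR1D1. The cause of these shifts was not tested.

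Retinas share replicate numbers across stages. Deviations from the stage means correlated at -0.45 to 0.6 between same-numbered retinas, and at -0.528 to 0.316 after centring by set as well. With so few retinas in each stage and set, these values cannot settle whether same-numbered samples are paired. With the number as a replicate block the count of clock genes called stayed 0 in every contrast, and PER2 in cones had a log2 fold change of 1.04 (adjusted p = 0.412, edgeR). PER1 and CRY1 rested on 814 and 371 UMIs in all, which limits the precision of their values; why they were low was not tested.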
